A study of Mus musculus with 12 samples.

Results

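The serine synthesis and folate one-carbon enzymes described here are 10 genes: Phgdh, Psat1, Psph, Shmt1, Shmt2, Mthfd1, Mthfd1l, Mthfd2, Aldh1l2 and Asns. They were taken by name from the 22180 genes that had a probe set carrying a single gene symbol, and all 10 were measured, each by 1 probe set. The arrays measured brown adipose tissue of 12 mice, 1 array per mouse and 3 per group. The groups were adipocyte-specific Sel1L knockouts at room temperature, Sel1L f/f controls at room temperature, knockouts at 4 °C and controls at 4 °C. Every mouse was on the C57BL/6J background and had been fasted for 5 h at its temperature. The knockouts carried Sel1L f/f and an Adiponectin-Cre transgene, so the deletion is directed to adipocytes and leaves Sel1L in the other cells of the tissue. The controls were Sel1L f/f littermates that the labels also call wildtype. The design asks what loss of Sel1L, the partner of the Hrd1 ubiquitin ligase in the disposal of misfolded ER proteins, does to expression at each temperature, and whether it alters the response to cold.

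Serine is made from a glycolytic intermediate in consecutive steps catalysed by Phgdh, Psat1 and Psph, and serine hydroxymethyltransferases then pass its carbon to folate. That carbon is carried on folate through parallel reactions in the cytosol (Shmt1, Mthfd1) and in mitochondria (Shmt2, Mthfd2, Mthfd1l, Aldh1l2) and is used for purines, thymidylate, methionine and mitochondrial translation. Several of these genes, with the asparagine synthetase gene Asns, are known targets of the transcription factor ATF4, which is made when the kinase PERK or other kinases phosphorylate eIF2α.

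All values are log2 expression values normalized across arrays by the authors. Levels of different genes were not compared with each other, because probe sets differ in brightness for reasons other than RNA amount. A difference was called where its adjusted p in limma was under 0.05 over all 23521 probe sets with 1 gene symbol, and errors after ± are standard errors of the model with 3 arrays per group. Array medians were 2.03 to 2.09. Sel1l itself read 6.18, 6.09 and 5.92 in the knockouts at room temperature, against 7.37, 6.96 and 7.23 in the controls (difference -1.12 ± 0.14, limma adjusted p = 0.00114). In the cold Sel1l read 6.90, 6.73 and 6.54 in the arrays labelled knockout, against 6.99, 6.69 and 7.04 in the controls, and this difference of -0.19 ± 0.14 was not called (limma adjusted p = 0.605). The Sel1l reading therefore bears out the genotype labels at room temperature only, and "knockout" at 4 °C stands for arrays labelled so; the positions of the probes relative to the deleted part were not used here. One control array at room temperature, replicate 3, has conflicting labels: its title and temperature entry give room temperature, and its source name gives 4 °C. It was kept at room temperature, and results that rest on it are also given without it.

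The brown adipocyte markers Ucp1, Cidea, Adipoq, Plin1, Fabp4 and Pparg averaged 10.60 to 10.66 in the knockouts, against 10.64 to 10.71 in the controls, at room temperature. Their average at 4 °C was 10.45 to 10.51 in the knockouts, against 10.63 to 10.71 in the controls. Of these 6 markers, 1 was called lower in the knockouts at 4 °C and 0 were called higher. Group means in the knockouts and controls at 4 °C were 9.25 and 10.02 for Pparg, and 7.73 and 8.01 for Adipoq. They were 9.14 and 9.28 for Plin1, 12.71 and 12.75 for Ucp1, 11.70 and 11.71 for Cidea, and 12.29 and 12.22 for Fabp4. The mean of 10 skeletal muscle markers was 7.17, 3.11 and 4.29 in the knockouts at room temperature, against 7.23, 7.67 and 8.09 in the controls. Its mean at 4 °C was 2.68, 7.43 and 6.77 in the knockouts, against 6.09, 5.64 and 8.66 in the controls. None of the 10 muscle markers was called by limma in any comparison, while 7 of 10 were lower in the knockouts at room temperature at an unadjusted p under 0.05. The means of 5 measured proliferation markers were 1.73 to 2.14 over all 12 arrays, close to the array medians.

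Promoter sequences are shown for Asns, Psat1 and Mthfd2, because Psat1 and Mthfd2 had the largest genotype differences of the 10 genes at room temperature and Asns held the only match to the motif searched. The motif was the C/EBP-ATF response element, the site to which ATF4 binds with C/EBP partners, written as TGATGNAA and searched on both strands with no other motif. Each window runs from 250 bases before to 50 bases after an annotated start site, from RefSeq on build GRCm38.p6, and is printed on the gene's strand, here the minus strand, with the match in capitals. The windows are chr6:7693160-7693459 for Asns, chr19:15925010-15925309 for Psat1 and chr6:83317555-83317854 for Mthfd2, which lies inside the annotated span of that gene.
Asns: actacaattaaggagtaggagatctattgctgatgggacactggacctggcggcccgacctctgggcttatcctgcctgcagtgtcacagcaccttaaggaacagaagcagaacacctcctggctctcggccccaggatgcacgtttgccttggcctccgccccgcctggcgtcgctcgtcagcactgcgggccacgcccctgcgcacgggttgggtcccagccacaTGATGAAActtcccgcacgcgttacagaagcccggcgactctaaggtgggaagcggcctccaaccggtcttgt
Psat1: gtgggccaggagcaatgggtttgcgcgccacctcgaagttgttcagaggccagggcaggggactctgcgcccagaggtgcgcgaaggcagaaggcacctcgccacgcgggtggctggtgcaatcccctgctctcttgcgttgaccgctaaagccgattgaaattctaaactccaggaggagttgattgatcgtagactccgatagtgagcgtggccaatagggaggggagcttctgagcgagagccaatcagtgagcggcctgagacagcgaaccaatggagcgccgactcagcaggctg
Mthfd2: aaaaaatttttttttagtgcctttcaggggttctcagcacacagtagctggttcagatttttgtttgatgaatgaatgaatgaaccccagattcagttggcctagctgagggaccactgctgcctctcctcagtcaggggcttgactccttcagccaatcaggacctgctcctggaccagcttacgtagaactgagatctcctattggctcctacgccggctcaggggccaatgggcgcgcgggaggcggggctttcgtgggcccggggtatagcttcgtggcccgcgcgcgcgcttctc
The letters TGATGAAA in the Asns window begin 23 bases before the start site. Of the 9 genes with a window, which exclude Aldh1l2, 1 held a match, against 1219 of 27025 genes (4.51%) among all promoters of this length. The Psat1 and Mthfd2 windows, and a further Psat1 window, did not hold these letters, which says nothing of sites elsewhere or of other sequences.

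At room temperature the knockouts had higher Mthfd2, Psat1 and Aldh1l2 and lower Shmt1 than the controls. Among the 10 genes, 3 rose and 1 fell by limma, where 1.29% of all probe sets tested were called higher and 0.429% lower. The median difference of the 10 was 0.30, against -0.01 over all probe sets. At 4 °C 4 of the 10, Mthfd2, Psat1, Aldh1l2 and Asns, rose and 1, Shmt1, fell, where 3.61% of all probe sets were called higher and 2.19% lower. The median difference of the 10 at 4 °C was 0.46, against -0.01 over all probe sets.

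**Figure D1:**
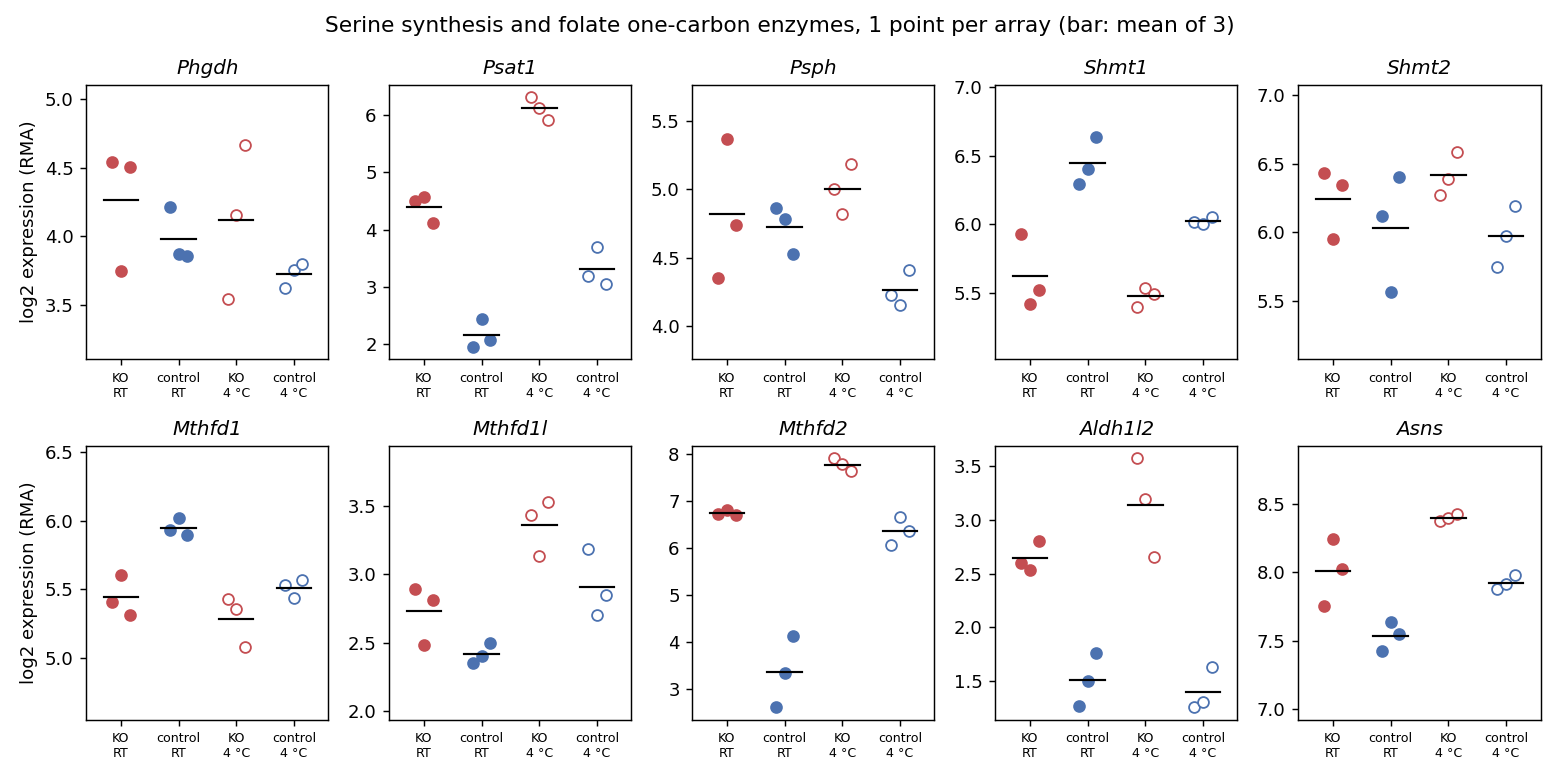
Log2 expression (y axis, own scale per panel) of each of the 10 enzymes, with 1 point per array, bars at group means, knockouts in red, controls in blue, filled points at room temperature and open points at 4 °C. Psat1, Mthfd2, Aldh1l2 and Asns separate the knockouts from the controls at both temperatures. Shmt1 and Mthfd1 do so in the other direction, Mthfd1 narrowly at 4 °C. Mthfd1 was called between genotypes at neither temperature, and Asns only at 4 °C. The share of all probe sets that separate in this way is not given here. The control values of Mthfd2 lie at 6.07 to 6.67 at 4 °C against 2.61 to 4.13 at room temperature.

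In the serine synthesis steps, Psat1 was called between genotypes and the enzymes before and after it were not. Phgdh, which commits the glycolytic intermediate to serine, read 4.54, 3.74 and 4.51 in the knockouts at room temperature, against 4.21, 3.87 and 3.85 in the controls. At 4 °C it read 3.54, 4.16 and 4.67 in the knockouts, against 3.62, 3.75 and 3.79 in the controls. The groups overlapped at both temperatures, and the differences of 0.28 ± 0.26 and 0.40 ± 0.26 were not called (limma adjusted p = 0.737 and 0.513). Their 95% intervals ran from -0.28 to 0.85 at room temperature and from -0.17 to 0.97 at 4 °C, so a rise by 1.80-fold at room temperature lies within the interval.

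Psat1, the transaminase that uses glutamate to make phosphoserine, read 4.50, 4.57 and 4.11 in the knockouts at room temperature, against 1.96, 2.44 and 2.08 in the controls. In the cold Psat1 read 6.31, 6.12 and 5.91 in the knockouts, against 3.20, 3.71 and 3.06 in the controls. Every knockout array lay above every control array of its temperature. The difference was 2.23 ± 0.19 at room temperature, a 4.69-fold rise (limma adjusted p = 4.45e-05), and 2.79 ± 0.19 at 4 °C, a 6.93-fold rise (limma adjusted p = 1.7e-06). The controls at room temperature were close to the array medians, where this normalization understates differences.

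Psph, the phosphatase of the last step, read 4.35, 5.37 and 4.74 in the knockouts at room temperature, against 4.86, 4.78 and 4.53 in the controls. These overlapped, and the difference of 0.09 ± 0.21 was not called (limma adjusted p = 0.919). At 4 °C Psph read 5.00, 4.82 and 5.18 in the knockouts, against 4.23, 4.15 and 4.41 in the controls. All knockout arrays lay above the control arrays, at a difference of 0.73 ± 0.21, and the limma adjusted p of 0.0639 missed the threshold. This difference was called in 4 of 20 alternatives (lowest adjusted p = 0.0119).

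Among the mitochondrial folate enzymes, Mthfd2, which oxidises methylene-folate, differed most between genotypes at room temperature. It read 6.73, 6.81 and 6.71 in the knockouts at room temperature, against 2.61, 3.33 and 4.13 in the controls, so the knockouts lay within a narrow band and the controls were spread below it. The difference of 3.39 ± 0.28 is a 10.5-fold rise (limma adjusted p = 4.1e-05), and without the control array of conflicting labels, which held the highest control value, it was 3.78 ± 0.21 (limma adjusted p = 8.12e-06). At 4 °C Mthfd2 read 7.92, 7.78 and 7.64 in the knockouts, against 6.07, 6.67 and 6.37 in the controls. The groups did not overlap there either, and the difference was 1.41 ± 0.28, a 2.65-fold rise (limma adjusted p = 0.0107). That call was lost without replicate 1 of the controls at 4 °C (limma adjusted p = 0.055).

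Aldh1l2, which turns formyl-folate into carbon dioxide and NADPH in mitochondria, read 2.60, 2.53 and 2.80 in the knockouts at room temperature, against 1.26, 1.50 and 1.76 in the controls. In the cold Aldh1l2 read 3.58, 3.19 and 2.65 in the knockouts, against 1.25, 1.31 and 1.63 in the controls. The genotypes did not overlap at either temperature, and all 6 control arrays lay below the array medians. The difference was 1.14 ± 0.21 at room temperature, a 2.20-fold rise (limma adjusted p = 0.0141), and 1.75 ± 0.21 at 4 °C, a 3.35-fold rise (limma adjusted p = 0.000191). The controls are not shown to be above background, so these folds are differences on the log2 scale of the table and no exact ratios of RNA. The room temperature call was lost without replicate 1 or replicate 2 of the controls or replicate 3 of the knockouts (limma adjusted p = 0.0673, 0.0524 and 0.0618), and it held without the array of conflicting labels (limma adjusted p = 0.021).

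The other mitochondrial enzymes were not called between genotypes. Shmt2, which moves the carbon of serine onto mitochondrial folate, read 6.43, 5.95 and 6.35 in the knockouts at room temperature, against 6.12, 5.56 and 6.40 in the controls. At 4 °C it read 6.27, 6.39 and 6.59 in the knockouts, against 5.75, 5.97 and 6.19 in the controls. The arrays overlapped at room temperature and did not at 4 °C, with differences of 0.21 ± 0.20 and 0.44 ± 0.20 (limma adjusted p = 0.749 and 0.293). Mthfd1l, which releases formate from formyl-folate, read 2.89, 2.48 and 2.82 in the knockouts at room temperature, against 2.35, 2.41 and 2.50 in the controls. Mthfd1l at 4 °C read 3.43, 3.13 and 3.53 in the knockouts, against 3.18, 2.70 and 2.85 in the controls. The arrays overlapped at both temperatures, with differences of 0.31 ± 0.15 and 0.45 ± 0.15 (limma adjusted p = 0.429 and 0.129).

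The cytosolic enzymes had lower values in the knockouts. Shmt1, the cytosolic counterpart of Shmt2, read 5.93, 5.41 and 5.52 in the knockouts at room temperature, against 6.30, 6.40 and 6.63 in the controls. At 4 °C it read 5.40, 5.53 and 5.49 in the knockouts, against 6.02, 6.00 and 6.05 in the controls. Every knockout array lay below every control array of its temperature. Shmt1 fell by 0.82 ± 0.14 on the log2 scale at room temperature, 1.77-fold (limma adjusted p = 0.00761), and by 0.55 ± 0.14 at 4 °C, 1.46-fold (limma adjusted p = 0.0336). In bulk tissue, fewer cells of a type that expresses a gene and less of its RNA per cell cannot be told apart.

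Mthfd1, the cytosolic enzyme that joins 3 folate reactions in a single protein, read 5.41, 5.61 and 5.31 in the knockouts at room temperature, against 5.93, 6.02 and 5.89 in the controls. The arrays did not overlap, and the difference of -0.51 ± 0.12 missed the threshold (limma adjusted p = 0.0537). At 4 °C Mthfd1 read 5.43, 5.35 and 5.08 in the knockouts, against 5.53, 5.43 and 5.57 in the controls. The highest knockout value there, 5.429, lay just below the lowest control value, 5.434. The difference there was -0.22 ± 0.12 (limma adjusted p = 0.381), and the change of the genotype difference between temperatures was not called (interaction 0.28 ± 0.17, limma adjusted p = 0.646).

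Asns, which makes asparagine from aspartate and glutamine, read 7.76, 8.24 and 8.03 in the knockouts at room temperature, against 7.42, 7.64 and 7.55 in the controls. Asns at 4 °C read 8.37, 8.39 and 8.43 in the knockouts, against 7.88, 7.91 and 7.98 in the controls. The knockouts lay above the controls at both temperatures, by 0.47 ± 0.12 each time. The same difference was called at 4 °C, as a 1.39-fold rise (limma adjusted p = 0.0406), and not at room temperature (limma adjusted p = 0.08).

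**Figure D2:**
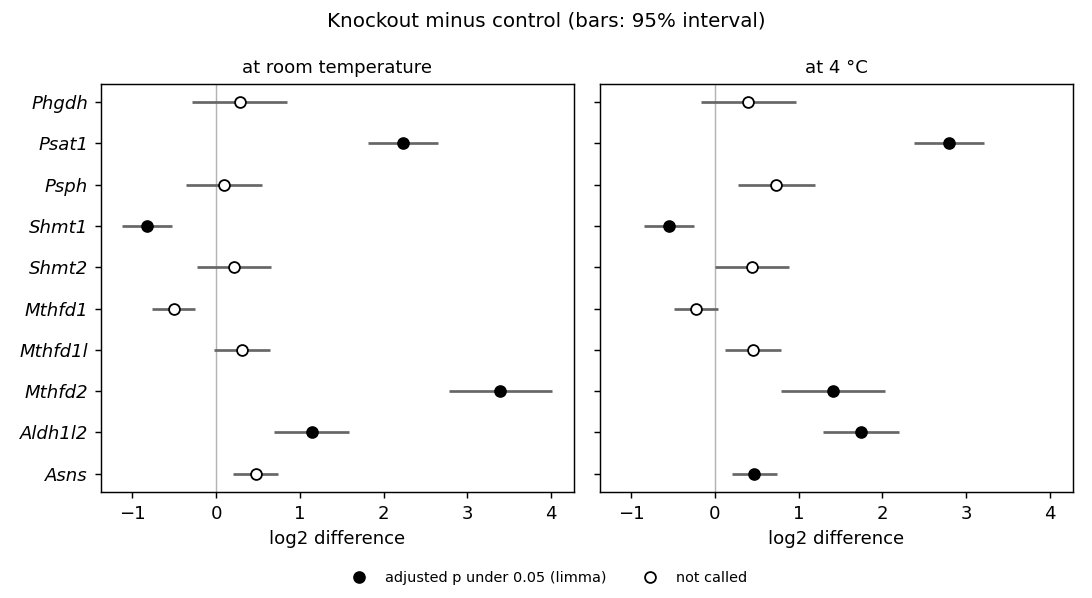
Log2 difference of knockouts minus controls (x axis) for each of the 10 enzymes (y axis) at room temperature and at 4 °C, with 95% intervals of the model as bars and filled points where the limma adjusted p was under 0.05. Mthfd2 (3.39) and Psat1 (2.23) lie farthest right at room temperature, Psat1 (2.79) and Aldh1l2 (1.75) at 4 °C, and Shmt1 lies left of 0 in both panels.

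With the muscle marker mean as a covariate, the room temperature differences were 2.08 ± 0.22 for Psat1 (limma adjusted p = 0.000983) and 3.38 ± 0.35 for Mthfd2 (0.000926), and the calls for Aldh1l2 (1.05 ± 0.25, 0.103) and Shmt1 (-0.65 ± 0.14, 0.0725) were lost. At 4 °C Psat1, Mthfd2, Aldh1l2 and Shmt1 kept their calls with this covariate and Asns did not (0.44 ± 0.13, limma adjusted p = 0.076). The Shmt1 call at 4 °C was lost when any 1 of the 6 arrays at 4 °C was left out (highest adjusted p = 0.114). The Asns call at 4 °C was lost without any 1 of those 6 arrays, without replicate 3 of the knockouts at room temperature and without the control array of conflicting labels (highest adjusted p = 0.128).

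In the cold, Psat1 and Mthfd2 rose in both genotypes. In the knockouts, 3 of the 10 genes rose at 4 °C and 0 fell by limma, where 4.32% of all probe sets were called higher and 4.70% lower. At an unadjusted p under 0.05, 5 were higher and 0 lower in the knockouts, and 4 were higher and 3 lower in the controls. The share of all probe sets at this unadjusted threshold is not given here. In the controls, 2 rose and 1 fell, where 4.85% of all probe sets were called higher and 6.23% lower. The median cold difference of the 10 genes was 0.29 in the knockouts and -0.08 in the controls, against -0.01 over all probe sets in each genotype.

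Mthfd2 rose by 1.03 ± 0.28 in the cold in the knockouts, 2.04-fold (limma adjusted p = 0.0414), and by 3.01 ± 0.28 in the controls, 8.08-fold (limma adjusted p = 9.32e-05). In both genotypes the arrays at 4 °C lay above those at room temperature. The knockouts at room temperature, at 6.71 to 6.81, already lay above the controls at 4 °C, at 6.07 to 6.67. The order of the 4 groups for Mthfd2 was therefore knockouts at 4 °C, knockouts at room temperature, controls at 4 °C and controls at room temperature, with no overlap between neighbours.

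Psat1 rose by 1.72 ± 0.19 in the cold in the knockouts, 3.30-fold (limma adjusted p = 0.000256), and by 1.16 ± 0.19 in the controls, 2.23-fold (limma adjusted p = 0.0023). Its 4 groups had the same order as those of Mthfd2, again with no overlap between neighbours. Mthfd1l rose in the cold by 0.63 ± 0.15 in the knockouts, 1.55-fold (limma adjusted p = 0.0219), and differed by 0.49 ± 0.15 in the controls, where it was not called (limma adjusted p = 0.0623). Its arrays at 4 °C lay above those at room temperature in both genotypes.

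Mthfd1 differed by -0.16 ± 0.12 in the knockouts (limma adjusted p = 0.547) and fell by 0.44 ± 0.12 in the controls in the cold, 1.35-fold (limma adjusted p = 0.0327). Every array at 4 °C read above those at room temperature of its genotype for Asns, by 0.39 ± 0.12 in the knockouts and 0.39 ± 0.12 in the controls, and neither was called (limma adjusted p = 0.0693 and 0.0616). Aldh1l2 differed between temperatures by 0.50 ± 0.21 in the knockouts and -0.11 ± 0.21 in the controls (limma adjusted p = 0.19 and 0.835), so its calls were between genotypes only. Shmt1 differed by -0.15 ± 0.14 in the knockouts and -0.42 ± 0.14 in the controls (limma adjusted p = 0.651 and 0.0735). Phgdh, Psph and Shmt2 were not called in the cold in either genotype, with differences of -0.14 to 0.18 in the knockouts and -0.46 to -0.06 in the controls.

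**Figure D3:**
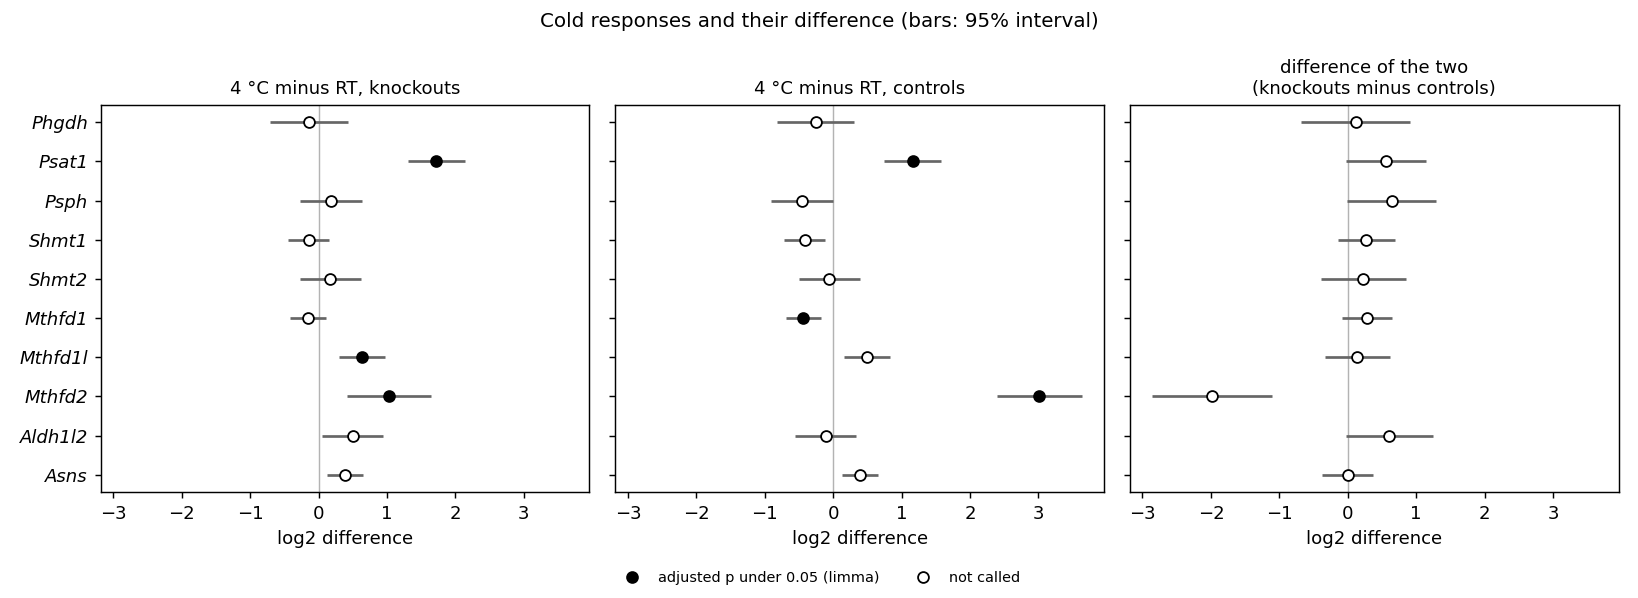
Log2 difference of 4 °C minus room temperature (x axis) for the 10 enzymes (y axis) in the knockouts, in the controls, and the difference of these differences, with 95% intervals as bars and filled points where the limma adjusted p was under 0.05. Mthfd2 rose by 1.03 in the knockouts and 3.01 in the controls, and its difference of -1.99 is the one farthest from 0 in the right panel.

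Whether the cold response itself depended on genotype was tested as the interaction, the cold difference in the knockouts minus that in the controls. None of the 10 genes was called by limma (0.306% of all probe sets were), and 1, Mthfd2, had an unadjusted p under 0.05. Its interaction was -1.99 ± 0.40 (95% interval -2.86 to -1.11, unadjusted p = 0.000312, limma adjusted p = 0.0674). It was called without the control array of conflicting labels (-2.37 ± 0.28, limma adjusted p = 0.00857). With that array placed among the controls at 4 °C it was -1.81 ± 0.72 and was not called (limma adjusted p = 0.606). The Mthfd2 interaction was called in 3 of 19 alternatives and not in the other 16. Psat1 had an interaction of 0.56 ± 0.27 with a 95% interval of -0.02 to 1.15 (limma adjusted p = 0.537), and that of Asns was 0.00 ± 0.17 with an interval of -0.37 to 0.37 (limma adjusted p = 1). The comparisons share arrays, so a high value in 1 group enters several of them.

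The cold calls in controls depend on how the array of conflicting labels is placed. Its Mthfd2 value of 4.13, Psat1 value of 2.08 and Mthfd1 value of 5.89 lay outside the ranges of the controls at 4 °C (6.07 to 6.67, 3.06 to 3.71 and 5.43 to 5.57), on the side of the other controls at room temperature. Without it, Mthfd2 (3.40 ± 0.21, limma adjusted p = 1.95e-05) and Psat1 (1.12 ± 0.22, 0.00989) kept their cold calls and Mthfd1 did not (-0.46 ± 0.14, 0.0589). The Mthfd1 call was also lost without replicate 1 or 2 of the controls at either temperature (highest adjusted p = 0.115). In the knockouts the Mthfd2 call was lost without any 1 of the 6 knockout arrays or replicate 2 of the controls at room temperature (highest adjusted p = 0.132), and also with the muscle marker mean as a covariate (1.03 ± 0.30, limma adjusted p = 0.0554). The Mthfd1l call in the knockouts was lost without knockout replicate 2 at room temperature or knockout replicates 1 or 3 at 4 °C (highest adjusted p = 0.0973).

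Patterns most like those of the 3 genes that differed by at least 1 on the log2 scale between genotypes were ranked by the root mean square difference over the 12 arrays, each gene centred on its own mean, among 22179 other genes. Nearest to Psat1 were Sec24d, a subunit of the coat of ER export vesicles (0.307), Aldh18a1, which starts proline synthesis from glutamate (0.386), and Manf, an ER stress-responsive secreted protein (0.391). Nearest to Mthfd2 were Aldh18a1 (0.717), Trib3, a pseudokinase induced by ATF4 and Ddit3 (0.772), and Psat1 itself (0.778). Nearest to Aldh1l2 were Mreg (0.210), Srprb, a subunit of the receptor for the signal recognition particle (0.221), and Spcs2, a subunit of the signal peptidase (0.221). The nearest pattern to Mthfd2 was thus farther off than those of Psat1 and Aldh1l2, in genes whose own standard deviations over the 12 arrays were 1.76 for Mthfd2, 1.54 for Psat1 and 0.815 for Aldh1l2. Likeness here is a description of 12 shared arrays.

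Genes that act around these enzymes were read from 6 lists, of which 54 of 63 genes were measured. Of the 54, 6 were called higher and 0 lower in the knockouts at room temperature (11 higher and 4 lower at an unadjusted p under 0.05 in limma), and 11 higher and 0 lower at 4 °C (14 and 5 unadjusted). Over all probe sets, 1.29% were called higher and 0.429% lower at room temperature, and 3.61% higher and 2.19% lower at 4 °C. In the ATF4 pathway list of 9 genes, 4 were called higher in the knockouts at room temperature: Trib3 (2.11 ± 0.28), Atf5 (1.63 ± 0.11), Ddit3 (1.22 ± 0.14) and Eif2ak3, the gene of PERK (0.87 ± 0.14). At 4 °C 4 of the 9 were called higher in the knockouts: Eif2ak3 (1.46 ± 0.14), Ddit3 (1.36 ± 0.14), Ppp1r15a (1.35 ± 0.17) and Atf5 (0.47 ± 0.11). Trib3 at 4 °C differed by 0.95 ± 0.28 and was not called (limma adjusted p = 0.0771), though it was in some alternatives (lowest adjusted p = 0.0198). Atf4 RNA itself was not called between genotypes, at 0.56 ± 0.19 at room temperature and -0.13 ± 0.19 at 4 °C (limma adjusted p = 0.193 and 0.822), and translation of ATF4 was not measured by these arrays. With the array of conflicting labels placed among the controls at 4 °C, the Trib3 call at room temperature was lost (limma adjusted p = 0.106). The Atf5 call at 4 °C was lost in 6 of 20 alternatives, among them that one and the leaving out of replicate 1 or 3 of either genotype at 4 °C (highest adjusted p = 0.135).

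In the cold, Atf4 RNA rose by 0.92 ± 0.19 in the knockouts (limma adjusted p = 0.00859) and by 1.61 ± 0.19 in the controls (limma adjusted p = 0.000301). Both calls were lost with the array of conflicting labels placed among the controls at 4 °C (limma adjusted p = 0.14 and 0.115). Of the 9 ATF4 pathway genes, 4 rose in the knockouts and 6 in the controls, where 4.32% and 4.85% of all probe sets were called higher. Atf5 was the one gene of the 54 with a called interaction (-1.16 ± 0.16, limma adjusted p = 0.00893): it averaged 8.66 at 4 °C and 8.61 at room temperature in the knockouts, and 8.19 at 4 °C and 6.98 at room temperature in the controls. The interaction was called without the array of conflicting labels (-1.14 ± 0.17, limma adjusted p = 0.0329) and was not called with it placed at 4 °C (-0.83 ± 0.41, limma adjusted p = 0.721).

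Of 14 measured genes of the folate cycle and folate transport, 0 were called by limma between genotypes at either temperature, with 0 higher and 3 lower at room temperature and 2 higher and 1 lower at 4 °C at an unadjusted p under 0.05. Aldh1l1, the cytosolic counterpart of Aldh1l2 and singled out after its values were seen, read 5.18, 5.62 and 5.20 in the knockouts at room temperature, against 6.16, 6.48 and 6.28 in the controls. The arrays did not overlap, and the difference of -0.97 ± 0.27 was not called (limma adjusted p = 0.114). It was called with only the arrays compared (limma adjusted p = 0.0312) and without replicate 3 of the controls at 4 °C (limma adjusted p = 0.0138). At 4 °C Sfxn1 and Fpgs, also singled out after their values were seen, were called higher in the knockouts in 3 alternatives and 1 alternative (lowest adjusted p = 0.0052 and 0.0473). The 4 genes of the glycine cleavage system, Gldc, Amt, Gcsh and Dld, were not called in any comparison, and between genotypes 0 of them had an unadjusted p under 0.05. Mthfd2l, the closest relative of Mthfd2, averaged 4.99 in the knockouts, against 4.87 in the controls, at room temperature and 4.67 in the knockouts, against 4.36 in the controls, at 4 °C. In the cold, 1 of the 14 folate genes fell in the knockouts, where 4.70% of all probe sets were called lower. This was the folate transporter Slc46a1 (-0.96 ± 0.21, limma adjusted p = 0.0126), whose call was lost in 3 of 20 alternatives (highest adjusted p = 0.062). In the controls 4 fell, where 6.23% of all probe sets were called lower. These were Mtfmt, which formylates the mitochondrial initiator tRNA (-1.30 ± 0.16), Slc46a1 (-1.08 ± 0.21), the folate carrier Slc19a1 (-0.62 ± 0.17) and Mthfd2l (-0.51 ± 0.14). The Slc19a1 call was lost in 8 of 20 alternatives and the Mthfd2l call in 12 of 20 (highest adjusted p = 0.259 and 0.21).

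**Figure D4:**
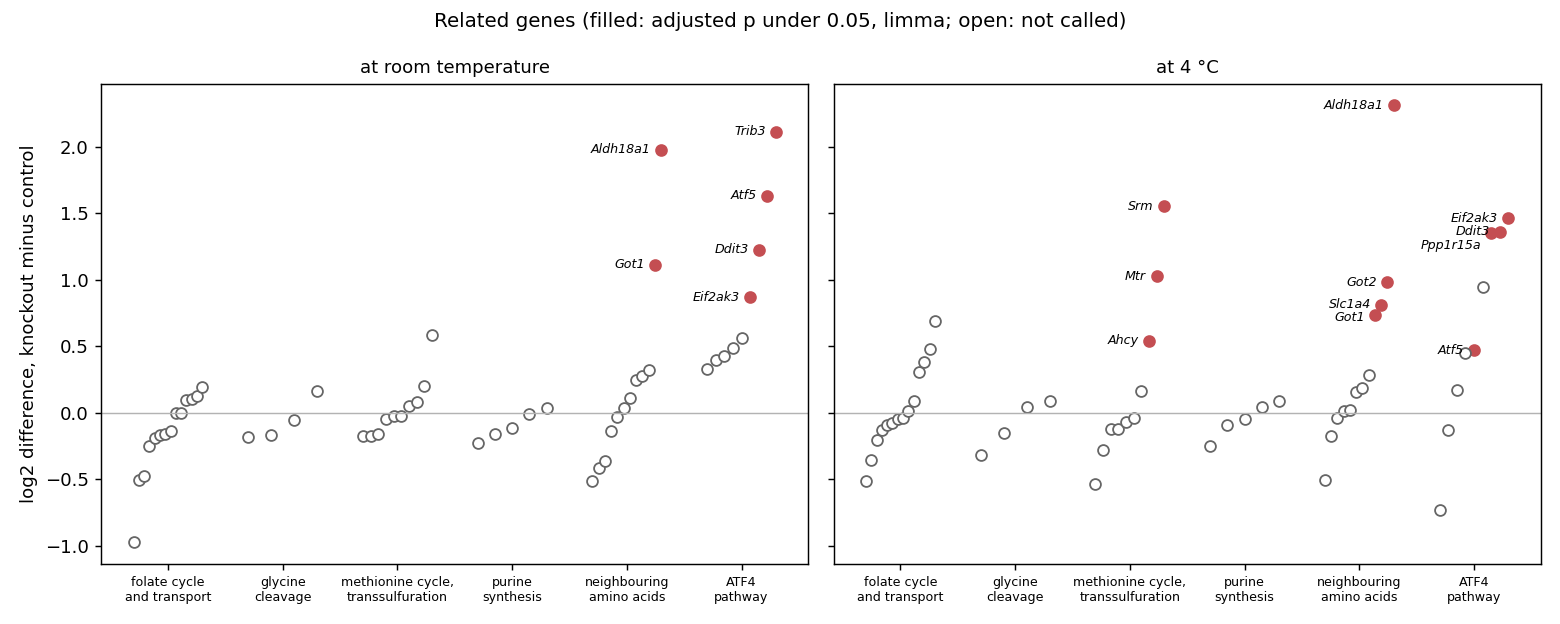
Log2 difference of knockouts minus controls (y axis) for the 54 measured genes of the 6 lists (x axis, sorted within a list) at room temperature and at 4 °C, with called genes filled and named. Filled points lie in the amino acid and ATF4 lists at room temperature and also in the methionine list at 4 °C, and the folate, glycine cleavage and purine lists have none.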

How the data were processed

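Affymetrix whole-transcript arrays were run on 100 ng of total RNA from the brown adipose tissue of each of 12 mice, per the labels' protocols. The labels speak of snap-frozen tissue and the design text of isolated adipocytes, so RNA of other cell types was treated as possible. The values are log2 expression values deposited by the authors (0.27 to 13.02). RMA, which corrects background, quantile-normalizes arrays and summarises probes, is the tool named, per the submitters' processing notes, with a version not given in the sources used here. Raw intensities were not used here, and the number of arrays limits the precision.

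All 12 columns were matched to samples by identifier, with 0 left over. Of 41345 probe sets, 23521 carried 1 gene symbol in the platform annotation (22180 genes), 1814 several and 16010 none. Only probe sets with 1 symbol were tested, with no brightness filter. No member had several probe sets.

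The model, 1 mean per group over all 12 arrays, used limma 3.58.1 (R 4.3.3) with its functions lmFit, contrasts.fit and eBayes. It had 8 residual and 4.45 prior degrees of freedom and a median standard error of 0.143. P-values were adjusted by Benjamini-Hochberg over the 23521 probe sets of a comparison. A positive sign means higher in the knockouts or, for cold, higher at 4 °C. The choice of animals is not described, and p-values cover only the spread among the 12 arrays. The code was checked on simulated data.

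The members and gene lists were chosen with earlier results of these data known. All members were named; in related lists the called genes, or up to 4 of them by size of difference, Atf4 and Eif2ak3 were named. Listed genes beyond the 54 measured, and the red blood cell markers, were not analysed here. Alternatives were each array left out, the array of conflicting labels moved, only the arrays compared, a replicate block, the muscle marker mean as a covariate, a mean of at least 4, all probe sets, each array centred on its median, and eBayes with trend and robust prior.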

Additional observations from a re-analysis of the deposited data

Results flagged for a closer look

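Among the genes around the enzymes, Atf5, a transcription factor related to ATF4, had a called interaction of genotype and cold. It read 8.52, 8.72 and 8.58 in the knockouts at room temperature, against 6.89, 7.10 and 6.93 in the controls. In the cold it read 8.73, 8.50 and 8.75 in the knockouts, against 8.18, 8.27 and 8.11 in the controls. The interaction was -1.16 ± 0.16 (limma adjusted p = 0.00893). Without the array of conflicting labels it was -1.14 ± 0.17 (limma adjusted p = 0.0329), and with that array placed among the controls at 4 °C it was -0.83 ± 0.41 and was not called (limma adjusted p = 0.721). Mtfmt moved in opposite directions by array: all knockout arrays read below the controls at room temperature (-0.48 ± 0.16, limma adjusted p = 0.206) and above them at 4 °C (0.38 ± 0.16, limma adjusted p = 0.253). Both separations were narrow. The highest knockout value at room temperature was 5.347 and the lowest control value 5.353. At 4 °C the lowest knockout value was 4.456 and the highest control value 4.413. The interaction of Mtfmt, 0.86 ± 0.23, was not called (limma adjusted p = 0.172).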

How the results depend on the processing

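Over the 10 enzymes and 5 comparisons, 975 results under alternatives gave 878 with the same direction and side of the threshold, 50 that lost a call (in 10 results), 22 that gained one and 25 that changed sign, 0 of them for a called difference. The knockout calls of Psat1 at both temperatures, of Mthfd2 at room temperature and of Aldh1l2 at 4 °C held throughout. The count of enzymes called was 4 between genotypes at room temperature and 2 with the muscle covariate, and at 4 °C it was 5 and 3 with all probe sets. With the array of conflicting labels moved to the controls at 4 °C, the cold counts were 1 in the knockouts and 0 in the controls, and the cold differences of Mthfd2 and Psat1 in the controls were 2.84 and 0.81 (limma adjusted p = 0.0824 and 0.284). The same move ended the cold calls of Mthfd2 and Mthfd1l in the knockouts (limma adjusted p = 0.304 and 0.0654), of Mthfd1 in the controls (0.275) and of Shmt1 between genotypes at room temperature (0.165), which was also lost with only the arrays compared (0.0705). Testing all probe sets ended the calls of Shmt1 and Asns between genotypes at 4 °C (0.0636 and 0.0696), of Mthfd1 in the cold in controls (0.0598) and of Mthfd2 in the cold in knockouts (0.0925). The interaction count was 1 with a mean of at least 4 and 1 with the trend and robust prior, both times Mthfd2 (limma adjusted p = 0.0349 and 0.0477). Leaving out 1 array gave 3 to 5 calls between genotypes at room temperature, 2 to 6 at 4 °C, 1 to 3 for cold in the knockouts, 2 to 5 for cold in the controls and 0 to 1 for the interaction. The interaction count of 1 came without replicate 3 of the controls at room temperature, and the 2 calls at 4 °C came without replicate 1 of the controls at 4 °C.

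Signs that changed, all of uncalled differences, were those of Psph between genotypes at room temperature (-0.0058 with the array moved, -0.093 with the muscle covariate, -0.18 to 0.33 leaving out 1 array), Shmt2 in the cold in controls (0.24, 0.0096, and -0.29 to 0.13), Aldh1l2 in the cold in controls (0.10 with the array moved, -0.23 to 0.014), the interaction of Shmt2 (-0.065 with the array moved) and that of Phgdh (-0.11 with the covariate, -0.16 to 0.41). Leaving out 1 array also changed the sign of Shmt2 between genotypes at room temperature (-0.018 to 0.40), of the Asns interaction (-0.13 to 0.12), and of the cold difference in the knockouts of Psph (-0.054 to 0.46), Shmt1 (-0.25 to 0.0095) and Phgdh (-0.41 to 0.15). The cause of these changes was not tested.

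Arrays with the same replicate number did not deviate together (r of -0.18 to 0.165 over 18 pairs, 2 of them over 0.1), so the numbers were not taken to pair animals. The replicate block ended the Shmt1 call at 4 °C (-0.55, limma adjusted p = 0.0586) and added Mthfd1l in the cold in controls (0.49, limma adjusted p = 0.0355), and changed no other call of the enzymes. For the related genes, Sel1l and the genes of most alike pattern, alternatives were chosen after seeing the data: of 69 called results 27 kept their call in every alternative, and the 11 higher and 8 lower cold calls of related genes in controls were 0 and 0 with the array moved. Averaging probe sets was not run, since no enzyme had several.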

Other observations

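Beyond folate, 3 genes of methionine and polyamine metabolism differed by genotype at 4 °C. Of 10 measured genes of the methionine cycle and transsulfuration, 3 were called higher in the knockouts at 4 °C, where 3.61% of all probe sets were. Srm, which makes spermidine, averaged 8.58 ± 0.05 in the knockouts and 7.02 ± 0.30 in the controls (SD, n = 3 each), a difference of 1.55 ± 0.15 SE. Mtr, the methionine synthase that takes its methyl group from folate, averaged 5.77 ± 0.04 in the knockouts and 4.75 ± 0.21 in the controls, a difference of 1.03 ± 0.20 SE (limma adjusted p = 0.00734). At room temperature Mtr averaged 5.64 in the knockouts and 5.56 in the controls. The fall of Mtr in the cold in the controls was called, and that call was lost in 4 of 20 alternatives (highest adjusted p = 0.396). Ahcy, which clears S-adenosylhomocysteine, differed by 0.54 ± 0.14 (limma adjusted p = 0.037). Between genotypes at 4 °C, the Srm call held in all 20 alternatives and the Ahcy call was lost in 7 of 19 (highest adjusted p = 0.151). The Mtr call between genotypes was lost only with the array of conflicting labels placed at 4 °C (limma adjusted p = 0.105). Cth, which makes cysteine, was not called between genotypes and rose in the cold by 1.72 ± 0.25 in the knockouts and 2.23 ± 0.25 in the controls. None of these was called by limma between genotypes at room temperature, where 1 of the 10, Srm, was higher at an unadjusted p under 0.05. Srm there read 7.63 to 7.71 in the knockouts, against 6.90 to 7.30 in the controls, a difference of 0.58. It was called without replicate 1 of the controls at 4 °C, with a mean of at least 4 and with the trend and robust prior (limma adjusted p = 0.0298, 0.0386 and 0.0474).

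Among 12 measured genes of neighbouring amino acid metabolism, 2 were called higher in the knockouts at room temperature and 4 at 4 °C. The shares over all probe sets were 1.29% and 3.61%. None of the 12 was called lower at either temperature, but Slc38a2 and Glud1 were in some alternatives. At 4 °C Slc38a2 was called lower without replicate 3 of the controls at 4 °C (-0.67, limma adjusted p = 0.0149). The same held with a mean of at least 4 (0.0357) and with the trend and robust prior (0.0491). At room temperature Glud1 was called lower with that mean filter (-0.52, limma adjusted p = 0.0266) and with that prior (0.0211). Aldh18a1 averaged 4.71 ± 0.22 in the knockouts and 2.73 ± 0.59 in the controls kept at room temperature, and 6.18 ± 0.24 in the knockouts and 3.88 ± 0.21 in the controls at 4 °C (SD, n = 3 each). Got1, the cytosolic aspartate aminotransferase, rose by 1.11 ± 0.19 SE in the knockouts at room temperature and by 0.73 ± 0.19 SE at 4 °C. The Got1 call at 4 °C was lost in 12 of 20 alternatives, among them the leaving out of any 1 array at 4 °C (highest adjusted p = 0.138), and that at room temperature with the array of conflicting labels placed at 4 °C (0.216) or only the arrays compared (0.0779). Its mitochondrial counterpart Got2 (0.98 ± 0.19) and the neutral amino acid transporter Slc1a4 (0.81 ± 0.16) were higher in the knockouts than in the controls at 4 °C. Got2 averaged 8.31 at room temperature and 8.77 at 4 °C in the knockouts, and 8.45 and 7.78 in the controls. The fall of Got2 in the cold in the controls was called, and that call was lost in 15 of 20 alternatives. In the cold, the glutamine transporter Slc1a5 fell by 1.43 ± 0.24 in the knockouts and by 1.62 ± 0.24 in the controls. Of 5 measured genes of purine synthesis, 1 was called in any comparison, Gart, which fell by 0.66 ± 0.20 in the cold in the controls (limma adjusted p = 0.049). That call was lost in 14 of 20 alternatives, with an adjusted p of up to 0.194 and a difference of -0.47 without replicate 2 of the controls at 4 °C.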
